A study of Mus musculus with 12 samples.

Results

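The genes described here are the nuclear-encoded subunits of respiratory chain complexes I to IV in mouse pancreatic islets. The set was chosen with earlier results of these data known, and its members were taken by symbol. It holds every gene of the deposited count table named Ndufa, Ndufb, Ndufc, Ndufs or Ndufv with a number. It also holds Sdha to Sdhd, Uqcrb, Uqcrh, Uqcrq, Uqcrc1, Uqcrc2, Uqcrfs1, Uqcr10 and Uqcr11. The Cox4 to Cox8 symbols that carry at most 1 letter from a to c, a number and 1 final letter complete it. This gave 64 of 24421 genes, 36 in complex I, 4 in complex II, 8 in complex III and 16 in complex IV. The wording of the symbol rule leaves out Cox4i1, Cox4i2, Cyc1, Cycs and Ndufab1, whose values are given beside the members. The table holds 0 mitochondrially encoded genes, so the subunits made inside the organelle were not analysed here.

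Islets, labelled as predominantly beta cells, came from mice of 2 genotypes. Control mice were Bmal1fl/fl. Knockout mice were Bmal1fl/flRIPCreERT/+, with a Cre-oestrogen receptor fusion under the rat insulin promoter, so recombination is aimed at beta cells and not at the other cells of the islet, and both genotypes carry the floxed alleles. The mice had received streptozotocin (STZ), a glucose analogue that enters and damages beta cells, or citrate buffer as vehicle, and islets were collected 24 h or 4 weeks later. The 6 groups of 2 libraries (A and B) are control and knockout with vehicle, with STZ at 24 h and with STZ at 4 weeks. All 4 vehicle libraries are labelled 24 h, so the 4-week groups have no vehicle group of their own time. No label says that A and B came from separate mice, so the p-values reflect no more than how these libraries spread, and that spread may be technical.

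The respiratory chain sits in the inner mitochondrial membrane. Complex I (NADH dehydrogenase) and complex II (succinate dehydrogenase) pass electrons to ubiquinone, complex III (cytochrome bc1) passes them to cytochrome c, and complex IV (cytochrome c oxidase) passes them to oxygen. Complexes I, III and IV pump protons, and ATP synthase uses the gradient. In beta cells, the ATP made in this way closes potassium channels and starts insulin release, so respiration is part of glucose sensing. Several complex IV subunits exist as a broadly expressed form and a form typical of heart and skeletal muscle, among them Cox6a1 and Cox6a2 as well as Cox7a2 and Cox7a1.

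Total counts per library ran from 101772241 to 127207523, of which the members took 0.204 to 0.390%. Arntl, the gene that encodes BMAL1, had 8.37 to 20.6 CPM (the usual depth-scaled counts, with library totals scaled by TMM) in control and 8.88 to 19.9 CPM in knockout libraries, so its total did not separate the genotypes. The exon of Arntl at chr7:113284999-113285156 (mm10) did: its coverage over the transcript mean was 1.51 to 1.97 in control and 0.598 to 1.40 in knockout libraries. Of 17 exons looked at, it was the only one whose control and knockout ranges did not overlap. Esr1, whose sequence the Cre fusion shares in part, was at 0.706 to 2.29 CPM in control and 51.1 to 359 CPM in knockout libraries. The beta cell markers (15 genes, Ins1 and Ins2 among them) summed to 87520 CPM or more in the control and knockout vehicle libraries and in the control STZ libraries, to 23660 and 26160 CPM in knockout STZ 24 h, and to 48680 and 81350 CPM in knockout STZ 4 weeks. Acinar markers were high everywhere, at 62700 to 361600 CPM, so exocrine RNA was present in each library. In such bulk samples, fewer cells of a type and less RNA per cell cannot be told apart.

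RefSeq promoters of GRCm38.p6 (250 bases before to 50 after the start) were matched for 49 of the 64 members. Cox6a2 had no entry. The 250 bases before the start are printed for Cox6a1, Cox7a2 and Cox7a1, which belong to the isoform pairs that moved furthest, and for Sdhd, the complex II subunit with the smallest adjusted p. Each is written 5′ to 3′ on the gene's own strand. Capitals mark 2 motifs that were searched on both strands: GCGCANGCGC, bound by nuclear respiratory factor 1 (NRF1), and CCGGAAG, bound by ETS factors such as GABP.
Cox6a1, chr5:115348959-115349208, minus strand: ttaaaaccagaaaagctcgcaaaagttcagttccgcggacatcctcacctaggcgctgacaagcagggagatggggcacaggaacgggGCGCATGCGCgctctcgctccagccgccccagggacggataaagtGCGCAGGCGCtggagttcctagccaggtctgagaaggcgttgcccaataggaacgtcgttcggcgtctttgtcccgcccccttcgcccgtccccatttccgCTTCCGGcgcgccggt
Cox7a2, chr9:79759854-79760103, minus strand: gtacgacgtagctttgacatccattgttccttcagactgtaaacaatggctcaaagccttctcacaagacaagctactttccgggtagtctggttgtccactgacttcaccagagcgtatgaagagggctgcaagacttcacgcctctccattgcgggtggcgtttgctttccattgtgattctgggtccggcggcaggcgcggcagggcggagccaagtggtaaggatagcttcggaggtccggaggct
Cox7a1, chr7:30183921-30184170, plus strand: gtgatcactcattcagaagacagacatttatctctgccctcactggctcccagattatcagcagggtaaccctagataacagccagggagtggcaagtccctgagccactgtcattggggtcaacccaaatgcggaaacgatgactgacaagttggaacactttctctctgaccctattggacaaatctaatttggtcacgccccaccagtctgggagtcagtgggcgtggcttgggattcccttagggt
Sdhd, chr9:50603850-50604099, minus strand: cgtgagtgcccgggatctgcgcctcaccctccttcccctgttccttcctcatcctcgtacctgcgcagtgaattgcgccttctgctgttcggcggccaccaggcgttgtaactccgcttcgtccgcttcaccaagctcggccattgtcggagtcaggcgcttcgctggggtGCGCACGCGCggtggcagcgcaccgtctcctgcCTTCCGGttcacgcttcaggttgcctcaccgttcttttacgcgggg

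Cox6a1 and Sdhd held both motifs in these stretches, and neither letter string occurred in those of Cox7a2 and Cox7a1. In the full window of 300 bases, Cox7a1 had 7 CpG dinucleotides, against 20 in Cox7a2, 32 in Cox6a1 and 29 in Sdhd. Over the 49 matched members, 11 (22.4%) held the NRF1 motif and 10 (20.4%) the ETS motif. Over all 32851 promoters of the table the shares were 4.60 and 8.86%. The median window held 19 CpG dinucleotides in members and 7 in all promoters, and both motifs contain CpG. The part of base composition in these shares was not tested. The YY1 motif AAGATGGC was in 7 members (14.3%), all of complex I, and in 2.75% of all promoters. The E-box CACGTG, the site of the BMAL1 dimer, was in 2 members (Ndufa7 and Ndufv1, 4.08%) and in 7.15% of all promoters. The estrogen-related receptor motif TCAAGGTCA was in Sdhd alone, in the bases after the start, and in 0.423% of all promoters. The TATAAA box was in 6 members (12.2%) and in 13.6% of all promoters. A match describes letters in this window and does not show binding.

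Levels can be compared between genes only per transcript length, for which TPM values (transcript abundance per length and depth) were summed by gene. Averaged over the 12 libraries, the highest members were Uqcrh (284 TPM), Ndufa4 (257 TPM), Uqcrb (256 TPM) and Cox6b1 (227 TPM). Most subunits of complex I lay between 20 and 140 TPM, with Ndufs5 (3.78 TPM) and Ndufa11 (7.34 TPM) lowest. Ndufa4, named after complex I, is now placed in complex IV, and was counted here by its symbol. The 4 complex II subunits were at 143 (Sdha, the flavoprotein), 126 (Sdhd, a membrane anchor), 92.3 (Sdhc, the other anchor) and 59.9 TPM (Sdhb, the iron-sulfur protein). Among the muscle-type and testis-type forms, Cox6a2 averaged 14.8, Cox6b2 0.790 and Cox7b2 0.0919 TPM. Cox7a1 averaged 62.8 TPM in knockout STZ 4 weeks and 0.620 to 3.41 TPM in the 5 other groups. Cox8b was counted in 1 library (control STZ 24 h A, 0.0526 CPM), and Cox8c had 0 counts in all 12 libraries, which allows up to 0.0126 to 0.0139 CPM in a group (3 counts over both libraries, counting error only). These last 2 genes failed the filter on low counts, so 62 of 64 members were tested.

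On the TMM-scaled CPM scale, expression of all 4 complexes was highest in the knockout islets 4 weeks after STZ. The order against knockout STZ 24 h depended on the scaling. In the knockout, 35 members were higher and 0 lower at 4 weeks than at 24 h with total counts. With the length offset 30 were higher and 0 lower, with the GC offset 26 and 1, and with DESeq2 size factors 9 and 1. The shares of all genes higher and lower were 30.4 and 11.9%, 20.7 and 15.5%, 31 and 23.6%, and 17.2 and 17.5%, in that order. With libraries scaled on 30 pan-endocrine genes, 1 member was higher and 50 were lower at 4 weeks than at 24 h in the knockout. Of all genes, 3.45% were higher and 66.7% lower there. The median log2 fold change was -0.88 for members and -1.07 for all genes. Summed over the 36 complex I genes, the knockout STZ 4-week libraries had 1467 and 1583 CPM, and the 10 other libraries 1077 to 1317 CPM. Complex II had 691.6 and 725.5 CPM there and 396.8 to 463.1 CPM elsewhere. Complex III had 809.6 and 732.0 CPM there and 425.1 to 565.9 CPM elsewhere. For complex IV the values were 774.7 and 821.6 CPM, and 448.5 to 600.1 CPM elsewhere. Neither 4-week knockout library overlapped any other library in any of the 4 sums. Over control STZ 4 weeks, the group means were 1.25-fold higher for complex I, 1.601-fold for complex II, 1.68-fold for complex III and 1.501-fold for complex IV. No sum was tested.

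**Figure D1:**
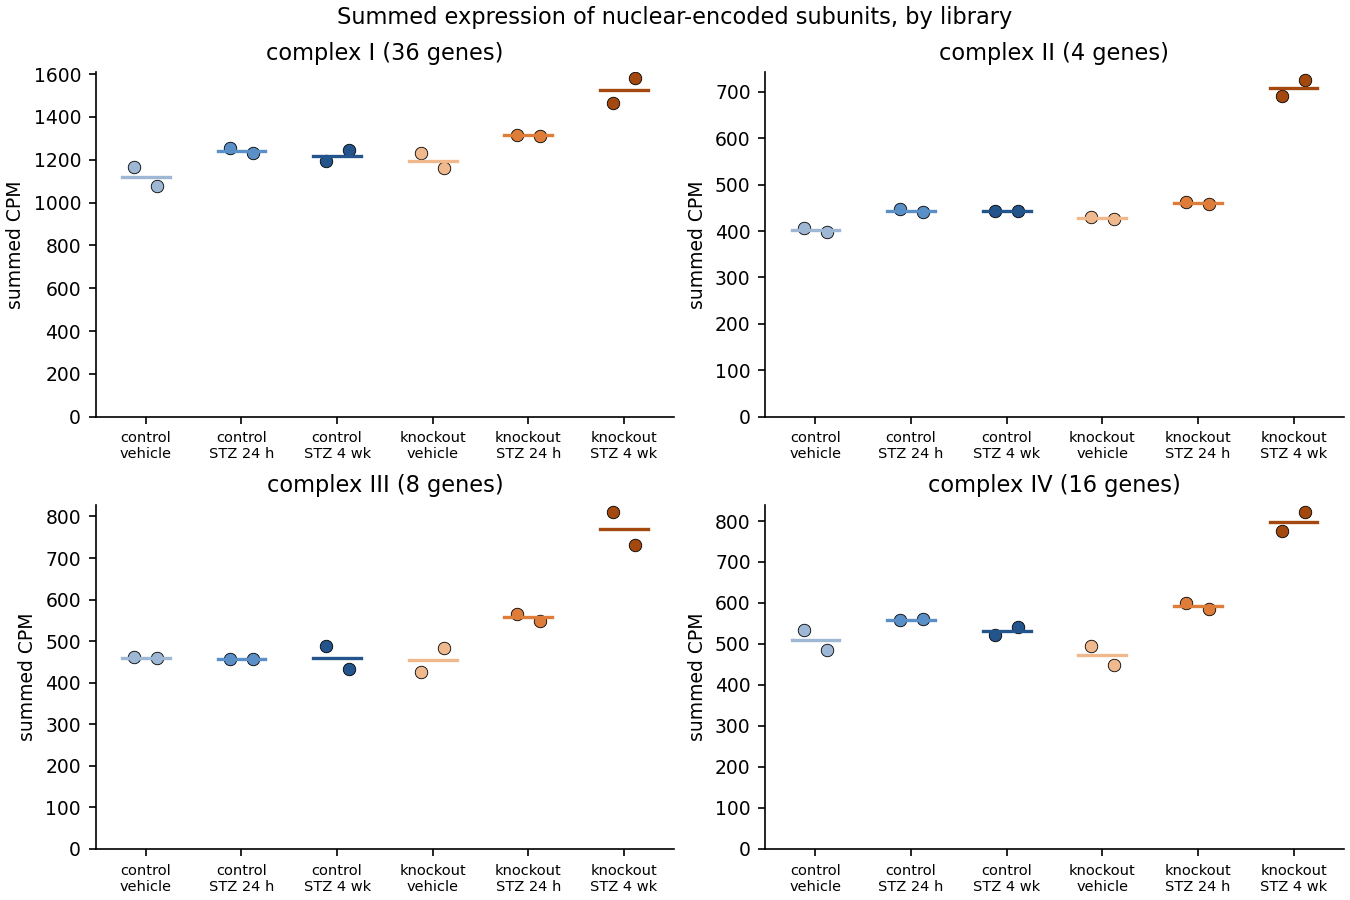
Summed CPM (TMM-scaled) of the nuclear-encoded subunits of complexes I to IV (vertical axes, from 0) in each library, by group (horizontal axes). Points are libraries A and B and bars their mean: the 2 knockout STZ 4-week libraries lie above the other 10 in every panel, by the widest margin in complex II.

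Gene by gene, 25 of the 62 tested members had both 4-week knockout libraries above all 10 others, and 0 had both below; 9.57% of the 17411 genes tested stood above in this way. They comprised all 4 members of complex II, 4 of 8 in complex III (Uqcrc1, Uqcrc2, Uqcrfs1 and Uqcrh), 9 of 14 tested in complex IV, and 8 of 36 in complex I. In 17 of the 25, the next highest library was one of the knockout STZ 24 h pair.

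Knockout against control at 4 weeks after STZ asks how islets of the 2 genotypes differ at the later time after injury. In the edgeR quasi-likelihood test over all genes, with adjusted p below 0.05, 21 of 62 members (33.9%) were higher and 1 (1.61%) lower in the knockout. The background in this comparison was 19.9% of tested genes higher and 7.89% lower. The members' median log2 fold change was 0.40 and that of all genes 0.01, and 57 of 62 members had a positive value. The difference between these medians was 0.40 in this fit, 0.38 with no filter on low counts, 0.39 with the GC offset and 0.36 with the length offset. A scaling moves every gene by about the same amount, so it could hardly change this difference (0.39 with total counts, 0.40 with pan-endocrine scaling). Of the 22 calls, 13 were made in all 21 fits, the 12 with 1 library left out included: Sdha, Sdhb, Sdhd, Uqcrfs1, Ndufa9, Ndufa10, Cox5a, Cox5b, Cox6a1, Cox6b1, Cox7a1, Cox7b and, in the other direction, Cox6a2.

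Complex II was the one complex in which every subunit rose. Sdhd was at 93.4 and 88.4 CPM in control STZ 4 weeks and at 178.8 and 177.8 CPM in knockout STZ 4 weeks, with 82.1 to 100.1 CPM in the 8 remaining libraries. The 4-week groups were thus far apart, and libraries A and B almost coincided. Its log2 fold change was 0.97 (SE 0.09, adjusted p = 4.93e-05). Sdha had 254.6 and 247.6 CPM in the control pair and 361.8 and 358.8 CPM in the knockout pair (log2 fold change 0.52, SE 0.08, adjusted p = 0.00161). Sdhb had 31.1 and 37.7 against 60.0 and 86.3 CPM (1.09 on the log2 scale, SE 0.20, adjusted p = 0.00325). Neither gene's groups overlapped, although the knockout libraries A and B differed more for Sdhb than for the others. Sdhc had 64.2 and 68.5 against 91.0 and 102.5 CPM (log2 fold change 0.55, SE 0.12, adjusted p = 0.00901), and its call was lost without control STZ 4 weeks A (adjusted p = 0.0585).

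In complex III, 4 of 8 members rose. Uqcrc1, a core protein, was at 41.4 and 60.7 CPM in control and 89.0 and 140.5 CPM in knockout STZ 4 weeks (log2 fold change 1.17, SE 0.25, adjusted p = 0.0085, but 0.0589 without control STZ 4 weeks A). Uqcrfs1, the Rieske iron-sulfur protein, was at 61.5 and 52.2 against 124.6 and 113.4 CPM (log2 fold change 1.07, SE 0.12, adjusted p = 0.000174). Uqcrh and Uqcrc2 rose by 0.83 and 0.64 on the log2 scale. Uqcrb, Uqcrq, Uqcr10 and Uqcr11 were not called.

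Complex I had the smallest median. Its 6 members that rose (16.7% of 36, below the 19.9% of all genes) did so by 0.36 to 0.60 on the log2 scale, and its median was 0.29 over 36 genes. The largest were Ndufb9 (control 52.8 and 48.5, knockout 79.6 and 73.9 CPM, log2 fold change 0.60, SE 0.10, adjusted p = 0.00225) and Ndufa4 (control 77.6 and 67.2, knockout 119.3 and 98.2 CPM, 0.59, SE 0.12, adjusted p = 0.00719). Both pairs were apart in CPM. Ndufb9 lost its call with a GC offset (adjusted p = 0.0840), and Ndufa4 without control STZ 4 weeks B (adjusted p = 0.0517) and with a length offset (adjusted p = 0.0719). The other 4 that rose were Ndufa5, Ndufa9, Ndufa10 and Ndufa12.

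In complex IV, 7 of 14 tested members rose and 1 fell, with a median log2 fold change of 0.79 (0.74 without Cox7b2, which has almost no counts). Cox5a, which contacts the core of the enzyme, had, in control islets, 28.4 and 28.8 CPM with vehicle, 25.7 and 23.1 CPM a day after STZ, and 28.2 and 19.2 CPM at 4 weeks. Knockout islets had 17.9 and 25.2 CPM with vehicle, 57.0 and 47.3 CPM a day after STZ, and 96.8 and 57.5 CPM at 4 weeks. Both knockout STZ groups lay above all other libraries, and A and B differed widely at 4 weeks. The 4-week log2 fold change was 1.71 (SE 0.28, adjusted p = 0.00213). Cox6b1 and Cox7b each rose by 0.88 (SE 0.09 and 0.11, adjusted p = 0.000137 and 0.000305), from 60.2 and 62.9 to 108.5 and 118.4 CPM and from 63.6 and 58.4 to 112.0 and 113.0 CPM.

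**Figure D2:**
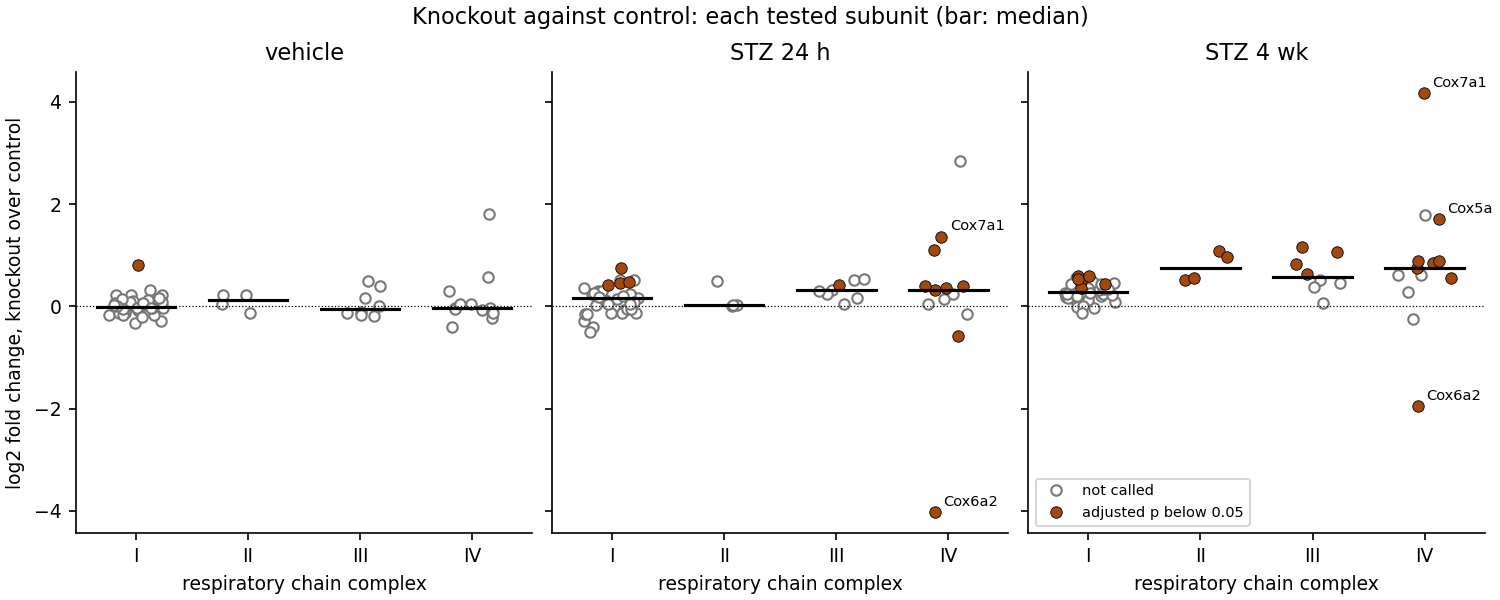
Log2 fold change of knockout over control (vertical axis) for each tested member by complex (horizontal axis), with vehicle, STZ 24 h and STZ 4 weeks in separate panels; filled points are called, bars are medians, and Cox7b2 is left out for its low counts. At 4 weeks the plotted medians are 0.29, 0.76, 0.58 and 0.74 in complexes I to IV, Cox7a1 stands highest and Cox6a2 lowest.

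Between the genotypes after STZ, the muscle-type isoforms Cox6a2 and Cox7a1 of complex IV went in opposite directions. Cox6a2 (chr7:128205435-128206366 in mm10, minus strand) had, in control islets, 4.90 and 4.12 CPM with vehicle, 12.8 and 14.4 CPM a day after STZ, and 7.05 and 11.7 CPM at 4 weeks. Knockout islets had 8.68 and 4.80 CPM with vehicle, 0.741 and 0.927 CPM a day after STZ, and 1.80 and 3.03 CPM at 4 weeks. The 4 knockout STZ libraries were the lowest of the 12, and the 2 control STZ 24 h libraries the highest. At 24 h after STZ the knockout was lower by a log2 fold change of -4.02 (SE 0.41, adjusted p = 8.67e-05), and at 4 weeks by -1.95 (SE 0.37, adjusted p = 0.00448). Its partner Cox6a1 (chr5:115345654-115348955) was higher in the knockout at both times, by 0.41 at 24 h (SE 0.14, adjusted p = 0.0497) and by 0.84 at 4 weeks (SE 0.14, adjusted p = 0.00261). The 24 h call of Cox6a1 was lost without any 1 of 8 libraries, namely every library except the 2 of control vehicle and the 2 of knockout STZ 4 weeks (adjusted p = 0.0544 to 0.179). With the length offset and with total counts its value was 0.11 and 0.15 (adjusted p = 0.345 and 0.393).

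As a share of Cox6a1 plus Cox6a2 on the TPM scale, Cox6a2 of control islets made up 12.6 and 13.2% with vehicle, 27.5 and 30.1% a day after STZ, and 17.8 and 24.6% at 4 weeks. For knockout islets the shares were 21.8 and 14.96% with vehicle, 1.67 and 1.99% a day after STZ, and 3.16 and 4.32% at 4 weeks. The beta cell markers fell in these comparisons too: 14 of 15 were lower at 24 h (median log2 fold change -2.30) and 13 of 15 at 4 weeks (median -1.16). The 16 markers of heart and skeletal muscle summed to 0.695 to 1.56 CPM in every library, with Mb, Myh6 and Pvalb at 0 in all 12. The part of the beta cell signal in the fall of Cox6a2 was not tested.

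Cox7a1 (chr7:30184171-30186030 in mm10, plus strand) had, in control islets, 0.239 and 0.148 CPM with vehicle, 0.342 and 0.248 CPM a day after STZ, and 0.526 and 1.04 CPM at 4 weeks. Knockout islets had 0.303 and 0.172 CPM with vehicle, 0.802 and 0.717 CPM a day after STZ, and 10.7 and 17.6 CPM at 4 weeks. The last pair stood far above every other library. Knockout over control, its log2 fold change was 4.17 at 4 weeks (SE 0.44, adjusted p = 0.000168), the largest of all called members. Cox7a2, the broad form, was at 71.2 and 67.0 against 102.6 and 101.4 CPM (log2 fold change 0.56, SE 0.13, adjusted p = 0.0122, but 0.0675 without control STZ 4 weeks B). Cox7a1 made up 17.7 and 26.4% of Cox7a1 plus Cox7a2 TPM in knockout STZ 4 weeks and 0.449 to 3.10% in the 10 other libraries.

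**Figure D3:**
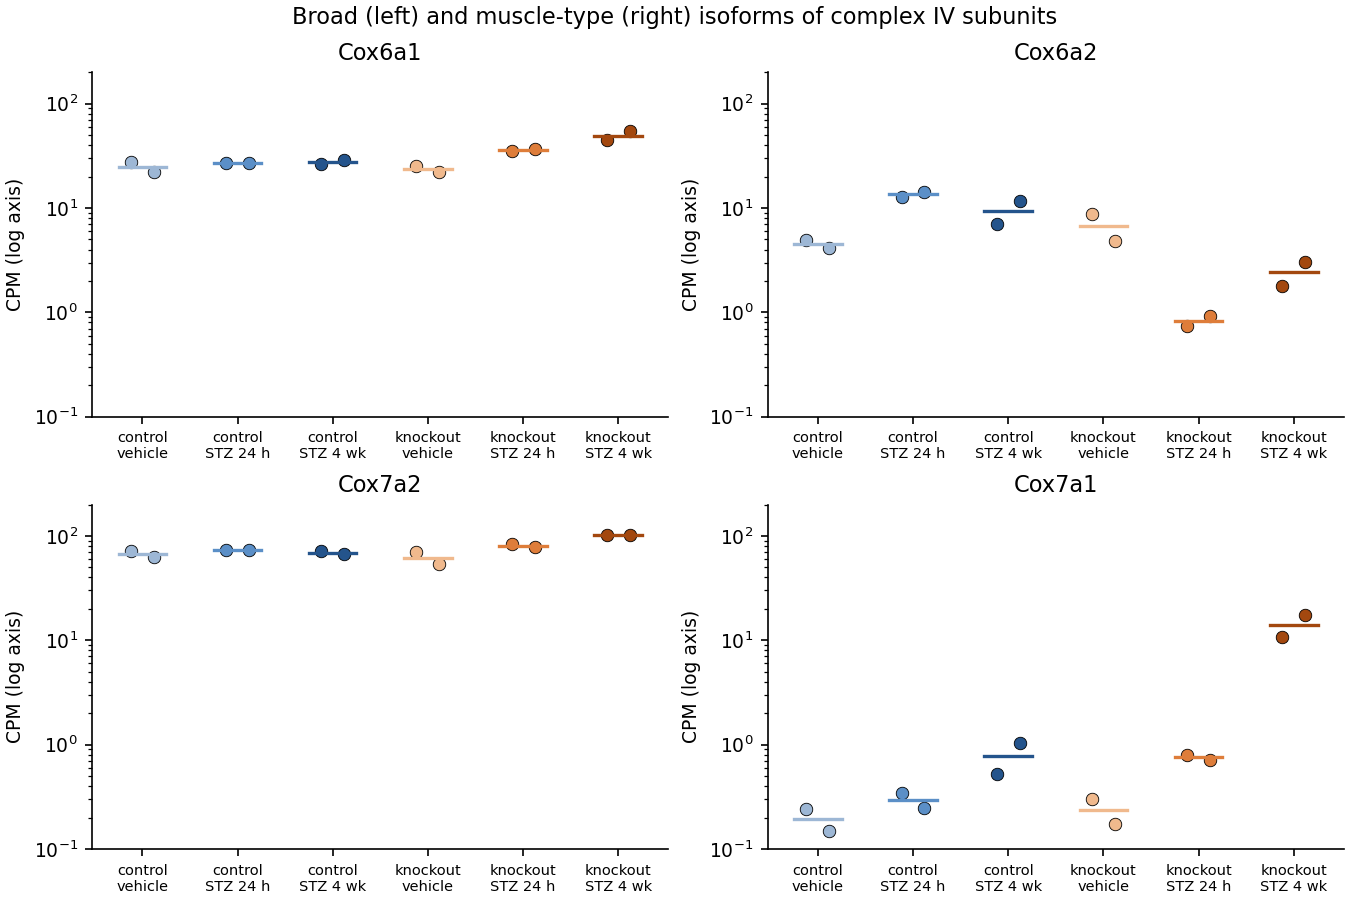
CPM (log axes) of Cox6a1 and Cox6a2 (top) and of Cox7a2 and Cox7a1 (bottom) in each library by group, with points for A and B and bars for their mean. Cox6a2 is lowest in knockout STZ 24 h (0.741 and 0.927 CPM) while Cox7a1 reaches 10.7 and 17.6 CPM in knockout STZ 4 weeks, and the broad forms differ far less between groups.

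The other pairs held no such shift. Cox6b2, a testis-type form, had 0 to 0.437 CPM outside knockout STZ 24 h, where it had 0.833 and 1.24 CPM, and was not called in the edgeR fit with TMM scaling (adjusted p = 0.105 for STZ against vehicle in the knockout). With pan-endocrine scaling it was called there (adjusted p = 0.00828) and against control STZ 24 h (0.0104). Cox7b2 had at most 0.174 CPM, and its fitted fold changes, as far out as 6.56 on the log2 scale, rest on 0 to a few counts and give no measure of size. Cox8a, the broad form beside the missing Cox8b and Cox8c, was at 40.8 to 56.9 CPM in all libraries, and its knockout STZ 4-week pair (56.9 and 55.4 CPM) was the highest. Cox4i2, the lung-type form outside the symbol rule, was 0.695 to 1.62% of Cox4i1 plus Cox4i2 TPM. Cox7a2l, which is not an isoform of Cox7a2 but a factor of respiratory supercomplexes, was at 136.1 and 137.6 CPM in control STZ 24 h and 90.7 and 91.0 CPM in knockout STZ 24 h. It was lower in the knockout by -0.59 on the log2 scale (SE 0.11, adjusted p = 0.00265), and at 4 weeks its value of -0.24 was not called, although it was with the length offset (-0.28, adjusted p = 0.0356), with total counts (-0.34, adjusted p = 0.0455) and with DESeq2 (-0.27, adjusted p = 0.0304). With pan-endocrine scaling, which moved the median of all genes to 1.62 at 24 h and 0.62 at 4 weeks, both values were positive (1.03 and 0.37).

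At 24 h after STZ, members were called in the knockout at shares near or below those of all genes. Against control STZ 24 h, 11 of 62 members (17.7%) were higher and 2 (3.23%) lower, and the background was 23.7% higher and 19.4% lower. Against its own vehicle group, the knockout had 19 (30.6%) higher and 4 (6.45%) lower, and the background was 30.1% higher and 26.2% lower. In the control, STZ against vehicle called 2 members higher (3.23%) and 0 lower, against 5.41 and 2.15% of all genes. At an unadjusted p below 0.05, 3 members were higher and 0 lower in this last comparison. The share of all genes at that unadjusted threshold was not counted. The DESeq2 test called 3 and 0, beside 8.02% of all genes higher and 4.16% lower. The comparisons that share a group are given side by side and were not set against each other.

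The members of largest change within the knockout at 24 h were in complex IV. Cox5a rose over vehicle by 1.28 on the log2 scale (SE 0.28, adjusted p = 0.00434) and Cox7a1 by 1.67 (SE 0.44, adjusted p = 0.0115, but 0.0767 without knockout vehicle B), while Cox6a2 fell by 3.01 (SE 0.40, adjusted p = 0.000218). In complex I, Ndufa10, an accessory subunit, went from 27.8 and 28.4 CPM to 45.5 and 48.1 CPM (log2 fold change 0.74, SE 0.10, adjusted p = 0.000242), and Ndufa3 from 21.8 and 15.6 to 33.8 and 32.3 CPM (0.82, SE 0.19, adjusted p = 0.00551). Neither pair overlapped its vehicle pair. Ndufa3 lost its call with the length offset (0.21, adjusted p = 0.128) and with total counts (0.34, adjusted p = 0.129). Ndufa10 kept its call in both, at 0.47 and 0.26. Cox5a lost its call with the length offset (0.83, adjusted p = 0.0732) and came to 0.80 with total counts. With TMM scaling Sdhb was the only called member of complex II, at 31.7 and 24.4 CPM with vehicle and 50.6 and 51.0 CPM after STZ (log2 fold change 0.86, SE 0.20, adjusted p = 0.00518). With total counts Sdhb was not called (0.38, adjusted p = 0.106), while Sdha (-0.40) and Sdhd (-0.70) were called lower. Sdhd was also called lower with an offset for transcript length (-0.47, adjusted p = 0.00396). In complex III, Uqcrq rose by 0.97 and Uqcrc1 by 0.87 (adjusted p = 0.0249 and 0.0167). Uqcrq lost its call without knockout vehicle B, knockout STZ 24 h A or knockout STZ 24 h B (adjusted p = 0.0613 to 0.144), and Uqcrc1 without knockout vehicle B or knockout STZ 24 h B (0.107 and 0.0871). With total counts both lost it (0.49 and 0.39, adjusted p = 0.176 and 0.186), and Uqcrq with the length offset too (0.45, adjusted p = 0.104).

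Of the 4 that fell, Cox7a2l fell by 0.37 and Ndufc2, a complex I accessory subunit, by 0.34 (adjusted p = 0.0208 and 0.0265), and both were positive with the pan-endocrine scaling (1.57 and 1.602). Ndufc2 lost its call without control STZ 24 h A, knockout vehicle A, or either knockout STZ 24 h library (adjusted p up to 0.111), and Cox7a2l without knockout vehicle A or either knockout STZ 24 h library (up to 0.0898). Against control STZ 24 h, the called members of complex I were led by Ndufb6 (14.98 and 14.8 against 25.7 and 24.1 CPM, log2 fold change 0.74, SE 0.12, adjusted p = 0.00124, but 0.45 and 0.0631 with the length offset). Ndufa4 (0.47), Uqcrfs1 (0.41), Cox5a (1.09) and Cox7a1 (1.36) were called as well, but each lost its call without 3 or 4 single libraries, among them control STZ 24 h A and B and knockout STZ 24 h A (adjusted p up to 0.180). With the length offset Ndufa4, Uqcrfs1 and Cox5a were at 0.16, 0.30 and 0.86 and not called. With total counts Ndufa4, Uqcrfs1 and Cox7a1 were at 0.22, 0.15 and 1.11 and not called. Without 1 library, the number of members higher against control STZ 24 h ranged from 2 (without control STZ 24 h A) to 13.

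Members are short transcripts, with a median of 638 bases against 2646 for all tested genes, and an offset for length changed the 24 h differences. With an offset for transcript length, 2 members were higher and 10 lower in knockout against control STZ 24 h. In knockout STZ 24 h against vehicle 4 were higher and 11 lower, and the members' median went from 0.41 to -0.00489. Of all genes, 23.6% were higher and 20.0% lower in the first comparison, and 29.6 and 26.9% in the second. Subunits of the cytosolic ribosome, also encoded by short transcripts, rose in 60 of 76 tested and fell in 0 in knockout STZ 24 h against vehicle (median 0.91). The mitochondrial ribosome and ATP synthase, given below, had no larger share of higher members than all genes in that comparison. The part of transcript length in these rises was not tested. With library sizes taken from total counts, the members' median in that comparison was -0.06, beside a median of -0.47 for all genes. At 4 weeks, knockout against control gave 20 higher and 2 lower with the length offset.

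Whether STZ acted differently by genotype at 24 h was tested as an interaction, the STZ effect in knockout minus that in control. It called 8 members with a larger value in the knockout (12.9%) and 2 with a smaller one (3.23%), and 21.1 and 16.6% of all genes. The largest were in opposite directions: Cox6a2 rose with STZ in control (log2 fold change 1.59, SE 0.37, adjusted p = 0.0328) and fell in the knockout, a difference of -4.60 (SE 0.54, adjusted p = 0.000211). The rise in control was lost without any 1 of the 2 control vehicle, 2 control STZ 24 h or 2 knockout STZ 24 h libraries (adjusted p = 0.0602 to 0.228). The interaction of Cox6a2 was called in every fit tried. Cox5a differed by 1.504 (SE 0.39, adjusted p = 0.0158) and Ndufa10 by 0.74 (SE 0.14, adjusted p = 0.00296). Cox5a lost its call without control STZ 24 h B, knockout vehicle A or knockout STZ 24 h A (adjusted p = 0.0523 to 0.0603). It also lost it with the length offset (1.14, adjusted p = 0.104) and with total counts (0.72, adjusted p = 0.152), where Ndufa10 came to -0.04.

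**Figure D4:**
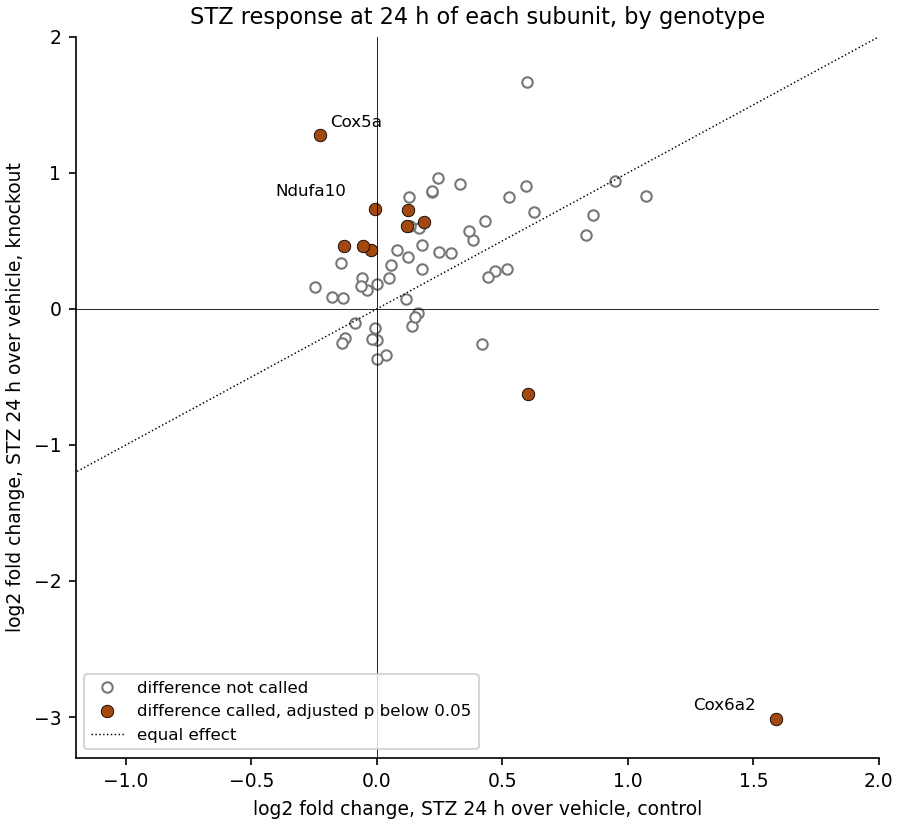
Log2 fold change of STZ 24 h over vehicle in control (horizontal axis) and in knockout (vertical axis) for 61 tested members, with Cox7b2 left out for its low counts; filled points have a called difference between genotypes and the dotted line marks equal effects. Cox6a2 (1.59 and -3.01) lies in the lower right and Cox5a (-0.23 and 1.28) in the upper left.

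With vehicle few members were called between the genotypes: 1 of 62 (1.61%) was higher and 0 lower, and 1.96% of all genes were higher and 7.68% lower. At an unadjusted p below 0.05, 2 members were higher and 2 lower, with the share of all genes not counted. The DESeq2 test called 2 and 2, beside 4.38% of all genes higher and 10.7% lower. The medians were -0.01 in complex I, 0.13 in II, -0.05 in III and -0.05 in IV.

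Between 24 h and 4 weeks after STZ, 16 members rose in the knockout and 0 were called in the control. In the knockout the 16 of 62 (25.8%) were higher at 4 weeks and 0 lower, with 20.2% of all genes higher and 15.5% lower. In the control 0 were called in either direction in the edgeR fit, with 1.27% of all genes higher and 4.22% lower. There, 2 members were higher and 0 lower at an unadjusted p below 0.05, with the share of all genes not counted. The DESeq2 test called 2 and 0, beside 3.39% of all genes higher and 6.67% lower. Sdhd led complex II in the knockout, from 86.05 and 83.2 to 178.8 and 177.8 CPM (log2 fold change 1.08, SE 0.09, adjusted p = 3.38e-05), with Sdha at 0.51 (SE 0.08, adjusted p = 0.0015) and Sdhc at 0.40 (adjusted p = 0.0286). Sdhc lost its call without either library of control STZ 24 h or knockout STZ 24 h, or without knockout STZ 4 weeks B (adjusted p = 0.0529 to 0.137). Cox7a1 rose by 4.22 (SE 0.45, adjusted p = 0.00017), Uqcrfs1 by 0.63 (SE 0.12, adjusted p = 0.00298) and Cox6a2 by 1.53 (SE 0.38, adjusted p = 0.0137). Cox6a2 lost this call without knockout STZ 24 h A or B or knockout STZ 4 weeks B (adjusted p = 0.0557 to 0.0962). Ndufc1 and Ndufa1, the largest in complex I (0.53 and 0.50), lost theirs without 5 or 6 single libraries, among them the control and knockout STZ 24 h pairs (adjusted p up to 0.193). Without knockout STZ 24 h B, 5 members were called. With the pan-endocrine scaling, which moved the median of all genes to -1.07, 1 member (Cox7a1) was higher and 50 were lower, and Sdhd, Sdha, Sdhc and Uqcrfs1 came to -0.09, -0.65, -0.77 and -0.54.

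Of the lists around the chain, ATP synthase and the TCA cycle had the larger shares of members that rose at 4 weeks, knockout against control, where 19.9% of all genes were higher and 7.89% lower. ATP synthase subunits rose in 7 of 15 and fell in 0 (median log2 fold change 0.62), led by Atp5g3, a proton-ring subunit (1.39, SE 0.20), and Atp5o (1.35, SE 0.11). Cycs, cytochrome c, was at 60.3 and 49.4 CPM in control and 171.0 and 125.2 CPM in knockout (1.43, SE 0.18, adjusted p = 0.00046), and Cyc1, cytochrome c1 of complex III, rose by 1.12 (SE 0.25). TCA cycle enzymes rose in 9 of 18 and fell in 1: citrate synthase (Cs) went from 80.5 and 84.7 to 355.5 and 381.2 CPM (2.16, SE 0.09, adjusted p = 1.1e-06) and Mdh2, malate dehydrogenase, by 1.92 (SE 0.27), while fumarase (Fh1) fell by 1.22 (SE 0.09). Assembly factors of the chain rose in 4 of 45 and fell in 5, mitochondrial ribosomal proteins rose in 5 of 77 and fell in 1, import components rose in 0 of 23 and fell in 1, and cytosolic ribosomal proteins moved in 0 of 76. In knockout STZ 24 h against vehicle, where 30.1% of all genes were higher and 26.2% lower, these counts were 4 higher and 0 lower for ATP synthase, 5 and 1 for the TCA cycle, 4 and 7 for assembly factors, 20 and 6 for the mitochondrial ribosome, and 4 and 2 for import, so none of these 5 lists had a larger share of higher members than all genes.

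Among 16 regulators of mitochondrial biogenesis, 4 (25%) rose and 0 fell at 4 weeks, a share near the 19.9% of all genes, and the median was 0.02. Ppargc1a, the coactivator PGC-1alpha, was at 6.70 and 5.48 CPM in control and 33.9 and 27.1 CPM in knockout STZ 4 weeks, with 4.85 to 7.36 CPM in the 8 remaining libraries (log2 fold change 2.33, SE 0.20, adjusted p = 5.2e-05). Ppara, a fatty acid receptor that acts with it, was at 7.01 and 6.39 against 44.0 and 41.2 CPM (2.67, SE 0.13, adjusted p = 2.2e-06), and was as high in knockout STZ 24 h (57.3 and 54.9 CPM). Esrra, the receptor ERRalpha, was at 2.60 and 5.97 against 8.81 and 28.6 CPM, with A and B far apart (log2 fold change 2.12, SE 0.66, adjusted p = 0.0432). The fourth was Nfe2l2, a factor of the oxidative stress response (1.52, SE 0.13). Nrf1, Gabpa and Tfam were not called, at -0.07, 0.03 and -0.04.

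Markers of several other tissues were also higher in knockout than in control STZ 4 weeks. Of these lists, only intestine had both knockout STZ 4-week libraries above the 10 others. The 14 intestine markers were all higher in knockout than in control STZ 4 weeks (median log2 fold change 4.88). Fabp2, the enterocyte fatty acid-binding protein, was at 59.5 and 38.0 CPM in control and 3049 and 2068 CPM in knockout STZ 4 weeks, at 120.6 and 101.9 CPM in knockout STZ 24 h, and at 2.89 CPM or less in the 6 others. The intestine markers summed to 15370 and 15170 CPM in knockout STZ 4 weeks and to 1328 to 8091 CPM elsewhere, where Zg16, also an acinar gene, made up most of the sum. The 18 macrophage markers, 17 of them higher, summed to 958.1 and 1314 CPM in knockout against 251.2 and 319.1 CPM in control STZ 4 weeks, and to 2978 and 3090 CPM in knockout STZ 24 h. Liver markers (12 of 14 higher) summed to 8805 and 8923 against 2781 and 2889 CPM, and reached 23440 and 22900 CPM in knockout STZ 24 h. Lymphoid markers (11 of 11) summed to 47.1 and 47.7 against 3.75 and 4.67 CPM. The summed ratio of knockout to control was 3.40 for smooth muscle (8 of 8), 2.23 for fibroblasts or stellate cells (7 of 10) and 2.20 for white fat (3 of 6). The highest of the 10 other libraries reached 413.5 CPM for lymphoid and 204.1 CPM for smooth muscle markers. For fibroblasts or stellate cells it reached 1532 CPM, and for white fat 101 CPM. These values lay above the knockout STZ 4-week means of 47.4, 92.8, 529.9 and 91.1 CPM. Brown fat was not seen by its defining gene: Ucp1 was at most 0.148 CPM, and 5 of its markers, without Ppargc1a, Cox8b and Cox7a1, summed to 0.163 to 8.13 CPM. The part of intestinal, macrophage, liver and other non-islet RNA in the rise of the respiratory chain genes was not tested.

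**Figure D5:**
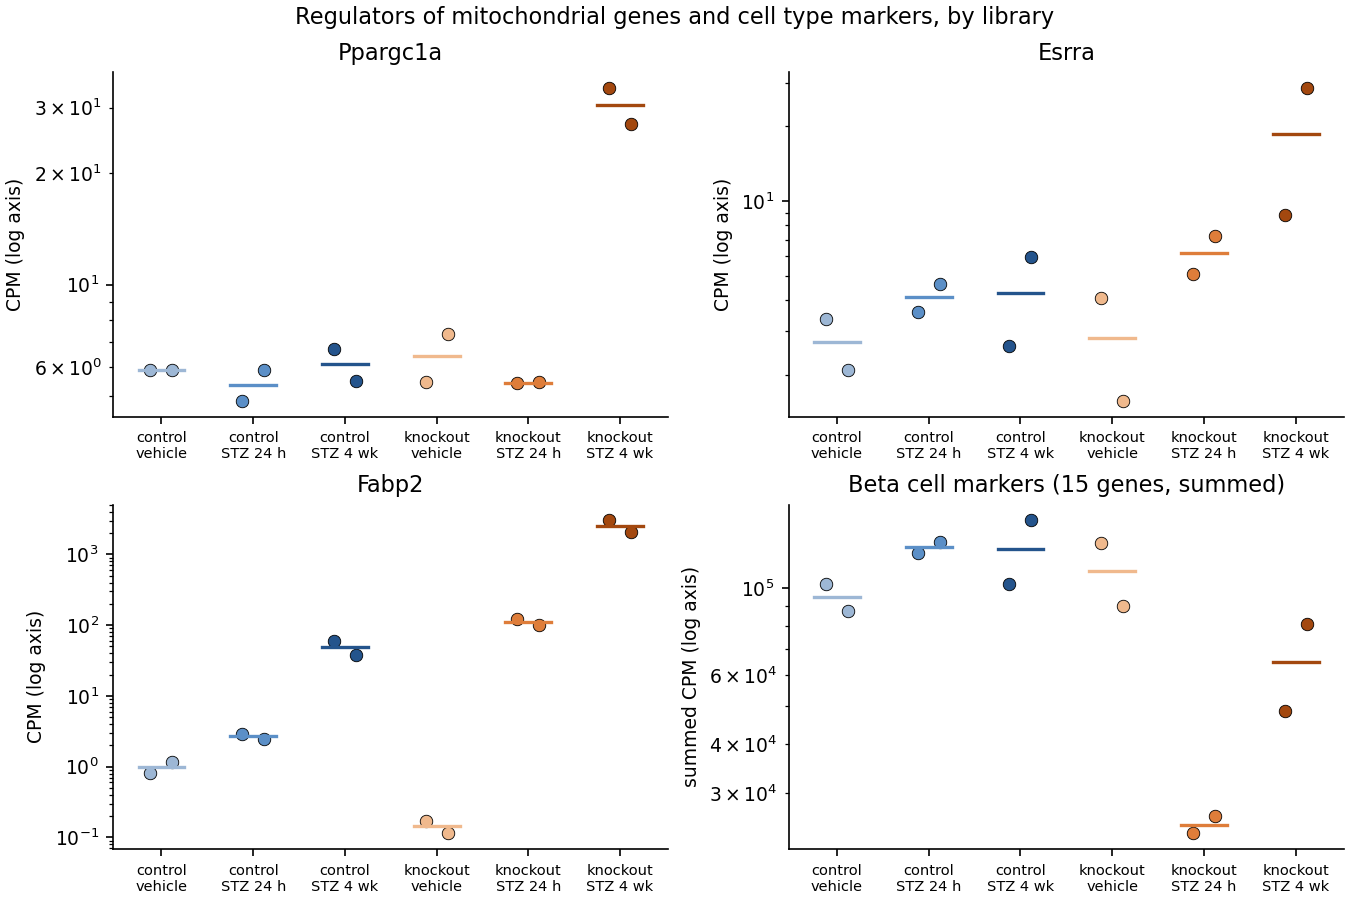
CPM (log axes) of Ppargc1a, Esrra and the enterocyte gene Fabp2, and summed CPM (log axis) of 15 beta cell markers, in each library by group, with points for A and B and bars for their mean. Ppargc1a (33.9 and 27.1 CPM) and Fabp2 (3049 and 2068 CPM) are highest in knockout STZ 4 weeks, and beta cell markers are lowest in knockout STZ 24 h (23660 and 26160 CPM).

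Libraries A and B differed by GC content, and members with them. Across 58 members, the log2 gap between A and B correlated with transcript GC at -0.65 in knockout STZ 4 weeks, -0.64 in control STZ 4 weeks and 0.67 in knockout vehicle, a description over genes that share these libraries. The gap reached 0.75 for Cox5a (A above B) and -2.04 for the member furthest in the other direction, both in knockout STZ 4 weeks. With a GC offset the 4-week comparison called 29 members higher and 1 lower. Several members have processed pseudogenes or close paralogs, and how the authors' counting shared such reads is not stated in the labels or headers, so the level of single members carries that uncertainty.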

How the data were processed

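RNA-seq of islets was analysed in 12 libraries, 2 in each of 6 groups taken from the labels. The authors deposited StringTie 1.3.6 output made with a strand option on a UCSC annotation, per the file headers, and the build was mm10, per the submitters' processing notes. No aligner is named in the labels or headers. The deposited gene table holds estimated counts, rounded here to whole numbers. TPM and exon coverage are the authors' values, per the file headers, and TPM was summed by gene.

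Counts were fitted over all genes with edgeR 4.0.16 (R 4.3.3, limma 3.58.1): TMM scaling (factors 0.825 to 1.21), filterByExpr (17411 of 24421 genes kept), 1 mean per group over all 12 libraries, and the quasi-likelihood test with Benjamini-Hochberg adjustment over all genes tested (threshold 0.05). The common dispersion was 0.0493, with 6 residual degrees of freedom and a median of 2.6 prior ones. CPM uses TMM-scaled totals. Depth was 101772241 to 127207523 counts per library. In each group, A and B differed by more than sampling noise. The fit was tested on simulated data. Tables and figures used Python 3.11.15, numpy 2.4.6, pandas 2.3.3 and matplotlib 3.10.9.

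Alternatives were DESeq2 1.42.0 (its test, and its size factors), total-count and pan-endocrine scaling, no filter on low counts, GC and length offsets, a replicate block, and each library left out in turn. Genes named are, per comparison and complex, the 2 largest calls in each direction, all of complex II and the isoform pairs of complex IV, plus the 2 largest calls per pathway list. The members and lists were chosen with earlier results of these data known. The values of 1 member are not reported here, though it is included in counts, sums and plotted points.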

Additional observations from a re-analysis of the deposited data

Results flagged for a closer look

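For 9 members reported here the effect of STZ at 24 h differed between the genotypes by the interaction term of the edgeR fit (adjusted p below 0.05, 2 libraries per group). Values are the log2 effect in knockout minus that in control. The value was smaller in the knockout for Cox6a2 (-4.60). The 8 with a larger value were Cox5a (1.504), Ndufa10 (0.74), Ndufb6 (0.61), Ndufb9 (0.59), Uqcrfs1 (0.51), Cox7b (0.49), Ndufa9 (0.45) and Cox6b1 (0.45). Among all genes, 21.1% had a called larger and 16.6% a called smaller value. Of the 21 fits, Cox6a2 was called in 21, Ndufa10 in 20, Ndufb9 in 18, Cox5a in 16 and Ndufa9 in 13. Across the fits the lowest value was negative for Cox6b1 (-0.34), Ndufa9 (-0.33), Cox7b (-0.30), Uqcrfs1 (-0.27), Ndufb9 (-0.19), Ndufb6 (-0.18) and Ndufa10 (-0.043). For Cox5a it stayed positive (0.72). Ndufb6, Uqcrfs1, Cox7b and Cox6b1 each lost the call without any 1 of 7 libraries (adjusted p up to 0.133).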

How the results depend on the processing

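With 2 libraries per group, single libraries moved the genotype counts more at 24 h than at 4 weeks. Leaving out each library in turn gave 17 to 23 members higher and 1 to 2 lower for knockout against control at 4 weeks, 2 to 13 and 2 to 4 at 24 h, and 0 to 1 and 0 with vehicle. It gave 0 to 3 and 0 for STZ in control, 13 to 23 and 2 to 5 for STZ in knockout, 0 and 0 for 4 weeks against 24 h in control, 5 to 19 and 0 to 1 in knockout, and 2 to 10 and 2 to 3 for the interaction. The correlation of A minus B gaps between groups ran from -0.391 to 0.478, so the letters did not pair the libraries throughout, but the highest value was that between control and knockout STZ 4 weeks. With a replicate block, 20 members were higher and 1 lower for the genotypes at 4 weeks, 0 were called in control STZ 24 h against vehicle, and of 132 gene results 128 kept direction and side of the threshold and 4 lost the call.

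The scaling moved the median of all genes. With total counts it became 0.53 for knockout against control with vehicle, -0.24 at 24 h, -0.08 at 4 weeks, 0.33 for STZ in control, -0.47 for STZ in knockout, 0.33 for 4 weeks against 24 h in knockout and -0.79 for the interaction. With pan-endocrine scaling it became -0.37, 1.62 and 0.62 for the genotype with vehicle, at 24 h and at 4 weeks, 1.94 for STZ in knockout, -1.07 for 4 weeks against 24 h in knockout and 2.00 for the interaction. In the order higher, lower, the members called with total counts were 31 and 0 with vehicle, 2 and 11 at 24 h, 20 and 2 at 4 weeks, 13 and 0 for STZ in control, 3 and 17 for STZ in knockout, 35 and 0 for 4 weeks against 24 h in knockout, and 0 and 24 for the interaction. With pan-endocrine scaling they were 0 and 14 with vehicle, 60 and 1 at 24 h, 47 and 1 at 4 weeks, 1 and 0 for STZ in control, 60 and 1 for STZ in knockout, 1 and 50 for 4 weeks against 24 h in knockout, and 54 and 1 for the interaction. DESeq2 size factors gave 9 and 1 for 4 weeks against 24 h in knockout, where 17.2% of all genes were higher and 17.5% lower.

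With the length offset there were 2 and 10 at 24 h, 20 and 2 at 4 weeks, 4 and 11 for STZ in knockout, 1 and 0 for 4 weeks against 24 h in control, 30 and 0 in knockout, and 1 and 9 for the interaction. With the GC offset there were 2 and 1 with vehicle, 16 and 4 at 24 h, 6 and 0 for STZ in control, 23 and 7 for STZ in knockout, 1 and 1 for 4 weeks against 24 h in control, 26 and 1 in knockout, and 14 and 6 for the interaction. The DESeq2 test gave 2 and 2 with vehicle, 18 and 2 at 24 h, 28 and 2 at 4 weeks, 30 and 5 for STZ in knockout, 2 and 0 for 4 weeks against 24 h in control, 16 and 1 in knockout, and 13 and 2 for the interaction. At 4 weeks, the shares of all genes higher and lower between the genotypes were 18.3 and 11.7% with total counts, 45.7 and 0.712% with pan-endocrine scaling, 20.2 and 7.91% with the length offset, 27.7 and 20.9% with the GC offset and 21.8 and 12.2% with DESeq2. At 24 h they were 19.1 and 29.8%, 81.1 and 0.902%, 23.6 and 20.0%, 31.9 and 29.3%, and 27.7 and 19.4%, in the same order. With vehicle they were 35.7 and 5.65%, 0.643 and 20.8%, 2.11 and 7.79%, 8.04 and 14.3%, and 4.38 and 10.7%. For STZ in knockout they were 23.5 and 43.4%, 84.3 and 0.609%, 29.6 and 26.9%, 35.8 and 34.2%, and 32.9 and 25.8%. In knockout, 4 weeks against 24 h gave 30.4 and 11.9%, 3.45 and 66.7%, 20.7 and 15.5%, 31 and 23.6%, and 20 and 19.9%. In control it gave 1.63 and 3.78%, 0.89 and 6.07%, 1.32 and 4.37%, 6.18 and 8.77%, and 3.39 and 6.67%. STZ in control gave 13.8 and 1.3%, 4.87 and 2.17%, 5.66 and 2.23%, 10.2 and 8.19%, and 8.02 and 4.16%. The interaction gave 14 and 44.3%, 76.1 and 0.482%, 20.9 and 17.5%, 29.4 and 26.7%, and 25.3 and 17.5%.

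Among the 132 gene results followed through these settings, direction reversed 42 times, by scaling in all but 1. A reversal was counted where the result was called with TMM scaling, in the alternative or in both. Changes of sign in results called in neither were left out. Examples are the interaction of Cox6a1 (0.47, and -0.32 with total counts) and Cox7a2 between the genotypes at 24 h (0.14, and -0.08 with the length offset). With total counts, knockout against control with vehicle became positive for Cox6a1 (0.47), Cox6b1 (0.49), Cox7a2 (0.42), Cox7a2l (0.31) and Cox7b (0.40). STZ in knockout became negative for Cox7a2 (-0.10, and -0.013 with the length offset) and Sdha (-0.40). The interaction became negative for Cox6b1 (-0.34), Cox7a2 (-0.53), Cox7b (-0.30), Ndufa10 (-0.043), Ndufb6 (-0.18) and Uqcrfs1 (-0.27). With pan-endocrine scaling, Sdha with vehicle became -0.35. At 24 h Cox7a2l (1.03), Cox8a (1.47) and Sdha (1.62) became positive, as did Cox7a2l at 4 weeks (0.37). STZ in knockout became positive for Cox7a2l (1.57), Cox8a (1.88), Ndufc2 (1.602) and Sdhd (1.72). The interaction became positive for Cox7a2l (1.65), Cox8a (1.80), Sdha (1.97), Sdhc (1.81) and Sdhd (1.81). For 4 weeks against 24 h in knockout, negative values were Cox6a1 -0.71, Cox6b1 -0.83, Cox7a2 -0.82, Cox7a2l -0.90, Cox7b -0.64, Cox8a -0.77, Ndufa1 -0.67, Ndufa4 -1.09, Ndufc1 -0.62, Sdha -0.65, Sdhb -0.65, Sdhc -0.77, Sdhd -0.089 and Uqcrfs1 -0.54. A scaling moves every gene of a comparison by about the same amount; for the length offset the cause was not tested.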
